A study of Mus musculus with 7 samples.

Results

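The 40 genes described here are interferon-stimulated antiviral genes, chosen by symbol from a list of genes that cells switch on after interferon. The choice was made with earlier results of these data known. All 40 genes were found among the 24084 gene symbols of the count table. They were read in Foxp3-expressing regulatory T cells (Tregs), which restrain immune responses, from mice aged 6 weeks. The 4 skin libraries (skin 1 to 4) hold Tregs sorted from telogen skin, which is skin in the resting phase of the hair cycle, and the 3 SDLN libraries (SDLN 1 to 3) hold Tregs sorted from skin draining lymph nodes. Both groups came from the strain given as Foxp3-DTR, in which the Foxp3 locus drives the diphtheria toxin receptor and a green fluorescent protein, and the labels name no treatment. Sorting gates, the number of animals per library and whether libraries came from separate animals are not given, so p-values measure only the spread between these libraries.

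Type I interferons signal through a receptor shared by nearly all cells, and the kinases JAK1 and TYK2 then activate transcription factors that bind the interferon-stimulated response element of their target genes. Interferon gamma uses another receptor, and its signal reaches genes through the gamma-activated site. The targets include sensors of viral RNA, enzymes that degrade or edit RNA, proteins that block translation, GTPases that attack virus particles or vacuoles, and brakes such as Usp18 that shut the receptor down. A low level of many of these transcripts is common in unstimulated lymphocytes.

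RefSeq promoter windows of GRCm38.p6, running from 250 bases before to 50 bases after a gene's start, were at hand for 30 of the 40 genes. The core of the interferon-stimulated response element, GAAA followed by any 2 bases and GAAA again, was searched on both strands and stood in the windows of 15 of these 30 genes (50%), against 3.99% of all 27025 genes with a window. The letters TTCNNNGAA of the gamma-activated site, which read the same on both strands, stood in 9 of 30 (30%) against 9.55% of all, and in Bst2 and Ifitm3 the matches of both motifs shared bases. The last 160 bases before the start are printed for 8 genes, with every match to that core, on either strand, in capitals, to set genes that fell or were near 0 in most skin libraries beside genes whose levels overlapped between the tissues. Of the first kind are Trim30a at chr7:104465194-104465353 (minus strand), Ifit1 at chr19:34640729-34640888 (plus strand), Ifit3 at chr19:34583369-34583528 (plus strand), Oasl1 at chr5:114923080-114923239 (plus strand) and Oasl2 at chr5:114896774-114896933 (plus strand). Of the second are Gbp3 at chr3:142559884-142560043 (plus strand), Gbp7 at chr3:142530176-142530335 (plus strand) and Isg15 at chr4:156200819-156200978 (minus strand).
Trim30a: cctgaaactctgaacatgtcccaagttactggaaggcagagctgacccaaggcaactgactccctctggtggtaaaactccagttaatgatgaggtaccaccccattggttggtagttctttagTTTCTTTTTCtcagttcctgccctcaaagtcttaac
Ifit1: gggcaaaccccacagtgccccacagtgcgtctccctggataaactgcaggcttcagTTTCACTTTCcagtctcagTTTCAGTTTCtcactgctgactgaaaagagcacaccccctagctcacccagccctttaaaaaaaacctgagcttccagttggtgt
Ifit3: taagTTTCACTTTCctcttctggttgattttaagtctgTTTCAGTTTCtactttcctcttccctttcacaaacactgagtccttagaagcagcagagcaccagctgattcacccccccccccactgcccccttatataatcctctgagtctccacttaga
Oasl1: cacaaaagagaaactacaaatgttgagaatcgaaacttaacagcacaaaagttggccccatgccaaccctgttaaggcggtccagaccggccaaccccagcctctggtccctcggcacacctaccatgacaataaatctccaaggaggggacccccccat
Oasl2: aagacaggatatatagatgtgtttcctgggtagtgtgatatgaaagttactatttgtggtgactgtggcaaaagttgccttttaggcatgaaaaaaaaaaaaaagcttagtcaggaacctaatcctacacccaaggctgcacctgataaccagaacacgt
Gbp3: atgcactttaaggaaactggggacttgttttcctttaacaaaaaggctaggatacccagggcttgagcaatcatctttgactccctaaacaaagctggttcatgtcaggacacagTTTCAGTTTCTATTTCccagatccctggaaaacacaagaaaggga
Gbp7: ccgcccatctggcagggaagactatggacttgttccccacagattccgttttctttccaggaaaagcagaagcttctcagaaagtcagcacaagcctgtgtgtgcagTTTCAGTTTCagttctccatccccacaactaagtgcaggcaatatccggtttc
Isg15: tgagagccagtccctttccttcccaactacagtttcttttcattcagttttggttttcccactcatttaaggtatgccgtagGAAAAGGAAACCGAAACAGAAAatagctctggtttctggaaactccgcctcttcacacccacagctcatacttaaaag
Trim30a and Gbp7 show 1 match each, Ifit1 and Ifit3 show 2 separate matches, and Gbp3 and Isg15 show 2 and 3 matches that overlap one another. Neither printed Oasl window holds these letters. A match in letters is a description of the sequence and was not tested against the expression values.

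Library totals were 11009609 to 13921238 gene counts in skin and 13123241 to 14785751 in SDLN. Levels are given in CPM, the counts of a gene relative to the library total after TMM scaling, and 3 counts corresponded to 0.204 to 0.276 CPM. Skin libraries detected 9690 to 12639 genes and SDLN libraries 13408 to 13845. Across genes, log2 CPM correlated at 0.624 to 0.699 within skin, 0.964 to 0.981 within SDLN and 0.617 to 0.7 between tissues. Skin 1 is skin by title and source name, although its tag for tissue gives the lymph node. Ctla4, an inhibitory receptor high in tissue Tregs, was at 3814, 4448, 2611 and 4406 CPM in skin 1 to 4, against 584, 566 and 802 CPM in SDLN 1 to 3. By Ctla4, and by Ikzf2 (3798 CPM in skin 1, 1199 to 1464 CPM in SDLN), skin 1 stood with the other skin libraries. Not every marker placed it there. Il2ra was at 1696 CPM in skin 1, inside its SDLN range of 1541 to 1746 CPM, and at 1128 to 1401 CPM in skin 2 to 4. Foxp3 in skin 1, at 107 CPM, lay just above its SDLN range of 69.0 to 102 CPM. The 11 T cell and Treg markers summed to 10252 to 17311 CPM in skin and 14195 to 15799.6 CPM in SDLN, but their members moved in both directions. Ctla4 and Ikzf2 rose and Lck, a kinase of the T cell receptor, fell (log2 fold change -1.12, adjusted p = 0.0406). At an unadjusted p under 0.05, 6 of the 11 were lower and 3 higher, with a median log2 fold change of -0.66. Cd3e, a CD3 chain of the T cell receptor complex, was at 1112, 560.4, 606 and 1248 CPM in skin 1 to 4, against 1678, 1662 and 2203 CPM in SDLN 1 to 3 (log2 fold change -1.07, adjusted p = 0.118), and the part of such T cell transcripts in the interferon-stimulated genes was not tested. Skin 3 stood apart by stromal transcripts. Its 9 fibroblast markers summed to 2151 CPM against 2.92 to 9.67 CPM in the other skin libraries, and its 10 keratinocyte markers to 978 CPM against 21.1 to 31.0 CPM. SDLN 3 held 3877 counts of the Y-linked gene Ddx3y and 4 of Xist, whereas each of the other libraries held at most 2 counts of Ddx3y and at least 4653 of Xist.

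Interferon-stimulated transcripts were lower in skin Tregs for 7 of the 40 genes, and none was higher. The 7 are Oasl1, Oasl2, Mx2, Rtp4, Sp100, Trim30a and Ifi35. All 40 passed the low-count filter. Oasl1, Oasl2 and Mx2, with 0, 0 and 1 skin counts, passed it through SDLN alone. Their fold change could thus only be negative, and they are among the 7. Ifit1, Ifit2, Ifit3, Mx1, Oas2, Oas3, Usp18, Ifi44 and Cmpk2 also had too few skin libraries above the filter's minimum to pass without SDLN. The fold changes of those genes were negative too. None of them is among the 7, but they enter the shares, medians and zero counts given for the members. With edgeR's quasi-likelihood fit and a Benjamini-Hochberg adjusted p under 0.05, 7.24% of the 11376 tested genes were called, 3.96% as lower in skin and 3.28% as higher, so 7 of 40 (17.5%) and 0 of 40 compare with those shares. The 40 genes were chosen with earlier results of these data known, so these shares are a description and not an independent check. No member was higher at an unadjusted p under 0.05 either (10% of all tested genes were), nor with DESeq2 or limma-voom, and 10 members were lower at that unadjusted level (8.52% of all tested). Among the 38 members with an SDLN mean of at least 10 CPM the share called lower was 18.4%, against 1.97% of the 7969 tested genes at that level. Without SDLN 1, SDLN 2 or SDLN 3 the number lower was 0. Without skin 1 it was 11, and without skin 2, 3 or 4 it was 6, 6 or 8.

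Direction was shared more widely than the calls. The fitted log2 fold change was negative for 34 of 40 members (85%), against 48.2% of all tested genes. Its median was -1.31 over the members and 0.05 over all tested genes, and it was also -1.31 with the 2 genes that had no skin count placed at their bound. The 4 skin libraries all lay below the 3 SDLN libraries for 21 members (52.5%), against 16.5% of all tested genes, and all lay above them for 0 members, against 10.1%. For the other 19 members the libraries overlapped. Summed over the 40 genes, the level was 7336, 3682, 3533 and 4429.8 CPM in skin 1 to 4, against 8935, 7355 and 7624 CPM in SDLN 1 to 3. Skin 1 thus lay just below the lowest SDLN library, while skin 2, 3 and 4 lay far below it. In such bulk libraries fewer cells that carry a transcript and less of it per cell cannot be told apart.

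**Figure D1:**
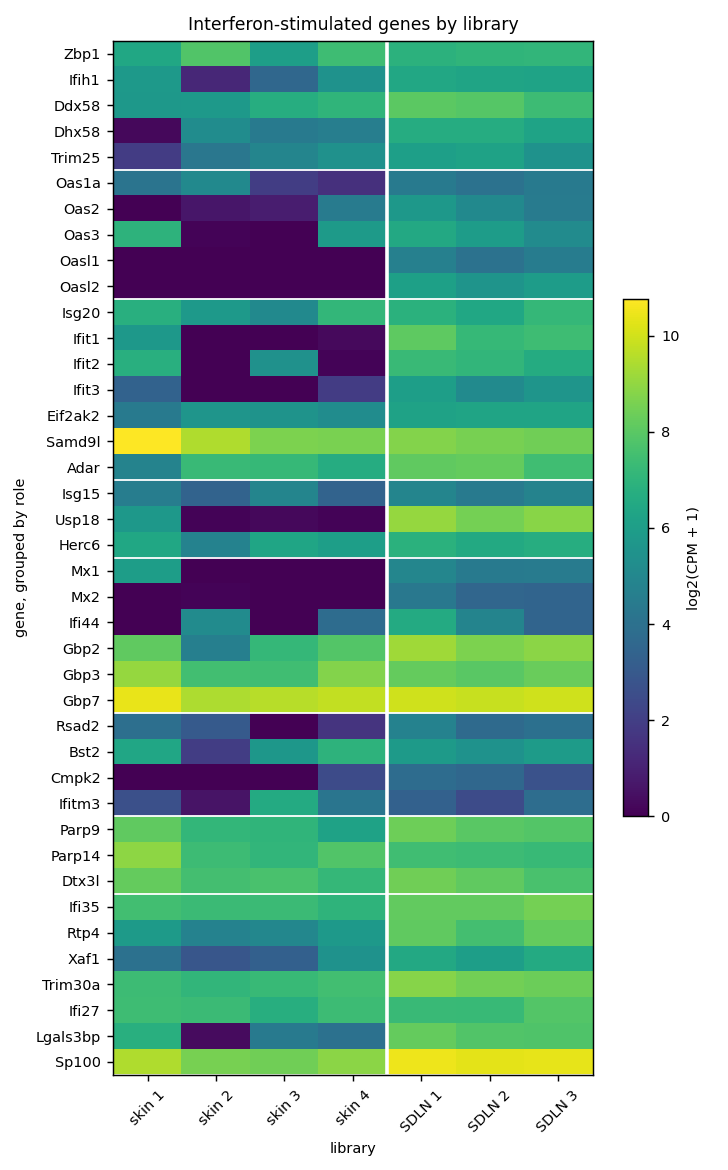
Level of each of the 40 genes (rows, grouped by role) in the 4 skin and 3 SDLN libraries (columns), as log2(CPM + 1), with brighter colours for higher levels. Oasl1 and Oasl2 are at 0 in all 4 skin libraries, and several other rows are at 0 in some skin libraries and not in others.

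Dropout to 0 was a second feature of the skin libraries. Every member had counts in all 3 SDLN libraries. Members without a count numbered 6, 7, 10 and 4 in skin 1 to 4, and 12 of 40 had no count in at least 1 skin library. Among members with an SDLN mean of at least 10 CPM this was 11 of 38 (28.9%), against 13.8% of all tested genes at that level. Oasl1 and Oasl2 had no count in any skin library, which is 5% of members, against 2.38% of all tested genes and 0.326% of tested genes with an SDLN mean of at least 10 CPM. Mx1, Mx2 and Cmpk2 had counts in 1 skin library only. Ifit1, Ifit3 and Ifi44 had none in 2 skin libraries, and Ifit2, Oas2, Oas3 and Rsad2 had none in 1. The remaining 28 members had counts in all 7 libraries, and their median log2 fold change was -0.91.

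Oligoadenylate synthetases make the second messenger that activates RNase L, and the OAS-like proteins are relatives that act on RNA sensing and translation. Both OAS-like genes fell in skin. Oasl2 (chromosome 5, 114896936 to 114912234) was at 0, 0, 0 and 0 CPM in skin 1 to 4, against 68.9, 46.5 and 60.6 CPM in SDLN 1 to 3. It was at least 235-fold lower in skin with 3 counts per skin library as the floor (adjusted p = 0.0116, alternatives gave 1.65e-18 to 0.156). That floor covers counting error only, and other losses of a transcript from a library were not measured. Oasl1 (chromosome 5, 114923240 to 114937915), which in mice limits translation of Irf7, was at 0, 0, 0 and 0 CPM in skin 1 to 4, against 24.5, 15.5 and 21.8 CPM in SDLN 1 to 3. It was at least 82.5-fold lower by the same floor (adjusted p = 0.0380; alternatives gave 6.74e-09 to 0.349). Oasl1 shares exon bases with an annotated gene on the other strand, and the strand setting of the counting is not given.

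Oas1a, Oas2 and Oas3 overlapped between the tissues and ranged widely within skin. Oas3, which makes long oligoadenylates, was at 122, 0.0809, 0 and 57.4 CPM in skin 1 to 4, against 87.9, 61.2 and 35.4 CPM in SDLN 1 to 3. Its highest library of all was skin 1, and skin 2 and 3 held 1 count and none (log2 fold change -0.46, adjusted p = 0.950). Oas2 was at 0, 0.566, 0.793 and 21.4 CPM in skin 1 to 4, against 52.2, 32.9 and 21.2 CPM in SDLN 1 to 3, with skin 4 reaching the lowest SDLN level and the others near 0 (log2 fold change -2.64, adjusted p = 0.532). Oas1a was at 16.5, 33.3, 2.91 and 1.78 CPM in skin 1 to 4, against 20.9, 15.5 and 20.2 CPM in SDLN 1 to 3, so skin 1 stood inside, skin 2 above and skin 3 and 4 far below the SDLN range (log2 fold change -0.47, adjusted p = 0.903). Near-identical copies of Oas1a make its count uncertain. Oas1a, Oas2 and Oas3 did not pass the test.

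The ISG15 system attaches the ubiquitin-like protein Isg15 to other proteins. Usp18, which removes Isg15 and also blocks the type I interferon receptor, did not pass. It was at 52.7, 0.0809, 0.176 and 0.0713 CPM in skin 1 to 4, against 529, 366 and 460.0 CPM in SDLN 1 to 3, where skin 2, 3 and 4 held 1, 2 and 1 counts and skin 1 held 573. All skin libraries lay below all SDLN libraries, but it was not called (log2 fold change -5.09, SE 2.04, adjusted p = 0.230). Without skin 1 it passed (adjusted p = 0.000597, range over all alternatives 0.000597 to 0.460), and it also passed with limma-voom (adjusted p = 0.00938). Isg15 itself was at 22.6, 9.87, 28.6 and 9.84 CPM in skin 1 to 4, against 28.8, 20.2 and 26.7 CPM in SDLN 1 to 3, with overlap between tissues (log2 fold change -0.51, adjusted p = 0.819). Herc6, the ligase that attaches Isg15 in mice, was at 25.97 to 84.96 CPM in skin and 91.96 to 118 CPM in SDLN, without overlap (log2 fold change -0.71, adjusted p = 0.492). The summed level of the 3 genes was 160.3, 35.9, 107 and 74.4 CPM in skin 1 to 4, against 676, 478 and 588 CPM in SDLN 1 to 3, without overlap.

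IFIT proteins bind foreign RNA caps and block translation. Ifit1 was at 52.01, 0, 0 and 0.214 CPM in skin 1 to 4, against 269.9, 147 and 171 CPM in SDLN 1 to 3, with 565 counts in skin 1 and at most 3 in each of the other skin libraries. The tissues did not overlap (log2 fold change -3.91, SE 2.12, adjusted p = 0.404), and it passed without skin 1 (adjusted p = 0.00539) and with limma-voom (adjusted p = 0.0182; range over all alternatives 0.00539 to 0.720). Ifit3, the partner of Ifit1, was at 9.48, 0, 0 and 2.78 CPM in skin 1 to 4, against 63.7, 34.4 and 47.96 CPM in SDLN 1 to 3 (log2 fold change -3.99, adjusted p = 0.316). It passed with limma-voom (adjusted p = 0.0326, range over all alternatives 0.0326 to 0.660). Reads of Ifit3 that also align to a near-identical copy stand outside the gene counts, so its count is uncertain. Ifit2 was at 110.2, 0, 42.4 and 0.0713 CPM in skin 1 to 4, against 155, 132 and 97.6 CPM in SDLN 1 to 3, so skin 1 stood inside the SDLN range, skin 3 below it and skin 2 and 4 at or near 0 (log2 fold change -1.75, adjusted p = 0.728). Ifit1, Ifit2 and Ifit3 thus shared skin 1 as their highest skin library and skin 2 as a library with no count.

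Other effectors that act on RNA or translation were detected in every library. Eif2ak2, the kinase PKR that stops translation on double-stranded RNA, was at 20.4 to 47.97 CPM in skin and 71.4 to 76.8 CPM in SDLN, without overlap (log2 fold change -0.995, adjusted p = 0.291). Adar, which edits adenosine to inosine in double-stranded RNA, was at 26.9, 153, 146 and 101 CPM in skin 1 to 4, against 276, 298 and 175 CPM in SDLN 1 to 3, with the skin values below all SDLN values (log2 fold change -1.23, adjusted p = 0.290). Adar shares exon bases with the gene Chrnb2 on the other strand. Isg20, a 3′ exonuclease, was at 33.6 to 139.9 CPM in skin and 84.9 to 142 CPM in SDLN (log2 fold change -0.43, adjusted p = 0.770). Samd9l, a translation inhibitor of the SAMD9 family, was at 1729.7, 711, 398 and 380.3 CPM in skin 1 to 4, against 432, 370.2 and 340.0 CPM in SDLN 1 to 3. Skin 1 and skin 2 exceeded every SDLN library and skin 3 and 4 stood inside the SDLN range (log2 fold change 1.08, SE 0.55, adjusted p = 0.367). Without skin 1 the log2 fold change of Samd9l was 0.39.

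**Figure D2:**
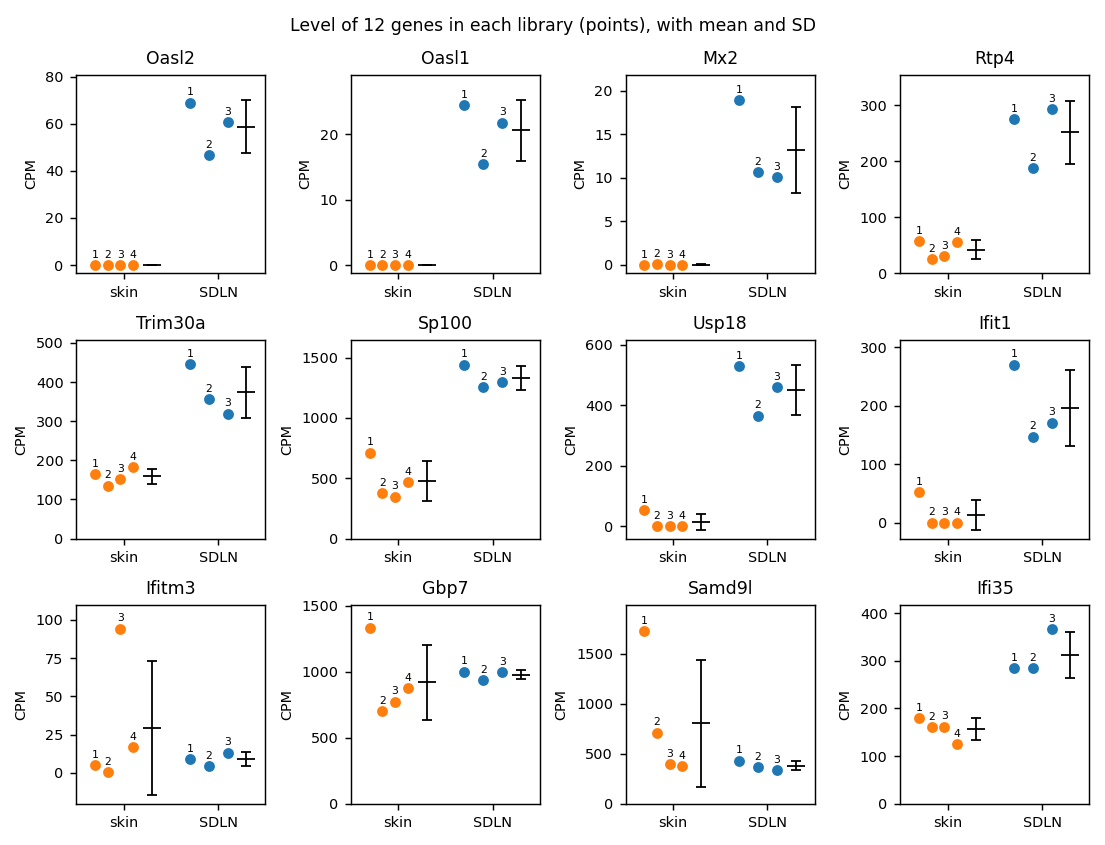
CPM of 12 genes in each library (points, labelled by library number), with skin left of SDLN in each panel and the mean and SD beside the points (n = 4 skin, n = 3 SDLN). Oasl2, Oasl1, Mx2, Rtp4, Trim30a, Sp100 and Ifi35 are lower in skin, Usp18 and Ifit1 have skin 1 above 3 skin libraries near 0, Ifitm3 is highest in skin 3, and Gbp7 and Samd9l overlap between tissues.

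The cytosolic sensors did not pass the test as single genes. Ddx58, the RNA helicase RIG-I, was at 53.02, 54.4, 104 and 131 CPM in skin 1 to 4, against 266, 241 and 166 CPM in SDLN 1 to 3, with all skin values below all SDLN values (log2 fold change -1.39, SE 0.41, adjusted p = 0.0969). It passed with DESeq2 (adjusted p = 0.0176) and without skin 4 (adjusted p = 0.0491; range over all alternatives 0.0176 to 0.362). Ifih1, the helicase MDA5, was at 1.29 to 55.2 CPM in skin and 74.8 to 85.7 CPM in SDLN (log2 fold change -1.51, adjusted p = 0.516). Dhx58, the regulator LGP2, was at 0.184 to 36.2 CPM in skin and 73.99 to 99.7 CPM in SDLN, with its low value in skin 1, where it had 2 counts (log2 fold change -2.18, adjusted p = 0.382). Without skin 1 Dhx58 passed (adjusted p = 0.0347, range over all alternatives 0.0347 to 0.685). Dhx58 shares exon bases with an annotated antisense partner, and the strand setting of the counting is not given. Trim25, a ubiquitin ligase that acts on RIG-I signalling, was at 2.76 to 42.8 CPM in skin and 43.9 to 72.9 CPM in SDLN, again lowest in skin 1 (log2 fold change -1.39, adjusted p = 0.452). Those 4 genes did not overlap between the tissues. Zbp1, a sensor of Z-form nucleic acid that can start necroptosis, was at 84.6, 230.3, 63.5 and 172 CPM in skin 1 to 4, against 119, 129 and 134 CPM in SDLN 1 to 3, with skin 2 and 4 above and skin 1 and 3 below the SDLN values (log2 fold change 0.11, adjusted p = 0.950). The 5 genes summed to 196 to 412 CPM in skin and 492 to 636 CPM in SDLN, without overlap.

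GTPases of the interferon response held 1 gene that fell. Mx2 (chromosome 16, 97535308 to 97560900), a dynamin-like protein that GENCODE lists as a polymorphic pseudogene in the mouse reference, fell in skin. It was at 0, 0.0809, 0 and 0 CPM in skin 1 to 4, against 18.9, 10.6 and 10.1 CPM in SDLN 1 to 3, which is 1 count in all over the skin libraries. The ratio of SDLN to skin was 643, and counting error alone allowed 115 to 25383 at 95% (adjusted p = 0.0380; alternatives gave 2.14e-06 to 0.331). Mx1, its neighbour, was at 63.1, 0, 0 and 0 CPM in skin 1 to 4, against 29.8, 20.4 and 21.2 CPM in SDLN 1 to 3, so skin 1 was above every SDLN library and the other skin libraries had no count (log2 fold change -0.60, adjusted p = 0.949). Without skin 1, which leaves no skin count, it passed (adjusted p = 0.0246, range over all alternatives 0.0246 to 0.993). Ifi44 was at 0, 35.7, 0 and 13.1 CPM in skin 1 to 4, against 94.8, 27.8 and 10.1 CPM in SDLN 1 to 3, with a wide range in both tissues (log2 fold change -1.86, adjusted p = 0.735).

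The guanylate-binding proteins, which coat and break vacuoles that hold pathogens and respond strongly to interferon gamma, were measured at high levels in both tissues. Gbp7 was at 1333, 698, 773 and 873 CPM in skin 1 to 4, against 1001, 937 and 996 CPM in SDLN 1 to 3, with skin 1 above and skin 2, 3 and 4 below the SDLN values (log2 fold change -0.09, SE 0.26, adjusted p = 0.921). Gbp3 was at 531, 178, 175 and 436 CPM in skin 1 to 4, against 297, 255 and 312 CPM in SDLN 1 to 3, with skin 1 and 4 above and skin 2 and 3 below (log2 fold change 0.19, adjusted p = 0.896). Gbp2 was at 283, 23.9, 141 and 233 CPM in skin 1 to 4, against 597, 395 and 475 CPM in SDLN 1 to 3, where every skin value lay below every SDLN value and skin 2 was lowest (log2 fold change -1.52, SE 0.67, adjusted p = 0.284). The 3 genes lie within 1 cluster of related genes on chromosome 3, and reads with multiple alignments stand outside the gene counts, so their counts are uncertain. None passed the test.

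None of the 4 membrane and budding factors passed. Bst2, or tetherin, holds budding virus on the cell surface and was at 81.2, 2.83, 51.5 and 123 CPM in skin 1 to 4, against 57.2, 43.2 and 58.9 CPM in SDLN 1 to 3, with skin 1 and 4 above, skin 3 inside and skin 2 below the SDLN range (log2 fold change 0.28, adjusted p = 0.932). Ifitm3, which blocks fusion of virus with endosomes, was at 5.25, 0.485, 94.3 and 16.9 CPM in skin 1 to 4, against 9.09, 4.49 and 13.3 CPM in SDLN 1 to 3, so that only skin 3 and 4 were above the SDLN values (log2 fold change 1.71, SE 1.51, adjusted p = 0.660). Fibroblast markers summed to 2151 CPM and keratinocyte markers to 978 CPM in skin 3, and their part in the Ifitm3 value was not tested. Without skin 3 the log2 fold change of Ifitm3 was -0.24. Macrophage and dendritic cell markers, of which 17 of 19 had counts in skin, summed to 230.0, 241, 264 and 1005 CPM in skin 1 to 4, against 19.5, 16.6 and 25.8 CPM in SDLN 1 to 3. Cd207 and Clec9a, of that list, had no count in skin, and the part of these cells in Bst2 and Ifitm3 was not tested. Of the 8 plasmacytoid dendritic cell markers other than Bst2, Siglech, a defining gene of these cells, was at 0 in every skin library, as were Klk1 and Cox6a2. Klk1 and Cox6a2 were also at 0 in every SDLN library. The other markers went both ways. Runx2 was at 40.5 to 118 CPM in skin and 7.18 to 10.1 CPM in SDLN. Tcf4 was at 31.4, 0, 110 and 100 CPM in skin 1 to 4, against 7.80 to 9.27 CPM in SDLN. Ccr9 was at 0 to 5.78 CPM in skin and 31.7 to 55.99 CPM in SDLN. Pacsin1 was at 2.78 to 36.8 CPM in skin and 17.3 to 21.1 CPM in SDLN. Ly6d was at 0 to 27.2 CPM in skin and 3.94 to 6.87 CPM in SDLN. The part of plasmacytoid dendritic cells in the Bst2 value was not tested. Rsad2, or viperin, which blocks virus replication with a modified nucleotide, was at 0 to 14.5 CPM in skin and 12.2 to 26.4 CPM in SDLN (log2 fold change -1.58, adjusted p = 0.711). Cmpk2, the kinase encoded beside it that supplies the nucleotide, was at 0 to 4.56 CPM in skin and 5.48 to 12.96 CPM in SDLN, with counts in skin 4 alone among skin libraries (log2 fold change -3.09, adjusted p = 0.572). Without skin 4, which leaves no skin count, it passed (adjusted p = 0.0439, range over all alternatives 0.0439 to 0.866).

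Among the PARP enzymes, the macrodomain ADP-ribosyltransferases, no gene passed. Parp9 was at 278, 138, 129 and 72.2 CPM in skin 1 to 4, against 337, 256 and 232 CPM in SDLN 1 to 3 (log2 fold change -0.83, adjusted p = 0.390), and Dtx3l, the ubiquitin ligase that forms a complex with it, at 299.6, 187, 204 and 144 CPM in skin 1 to 4, against 338, 281 and 203 CPM in SDLN 1 to 3 (log2 fold change -0.40, adjusted p = 0.622). Parp9 and Dtx3l are read from opposite strands and share exon bases at their starts, so part of their reads cannot be assigned without strand. Parp14, a regulator of STAT signalling, was at 482, 167, 135 and 228 CPM in skin 1 to 4, against 175, 163 and 150.1 CPM in SDLN 1 to 3 (log2 fold change 0.64, SE 0.45, adjusted p = 0.553). In all 3 genes skin 1 was the highest skin library. Without skin 1 the log2 fold change of Parp14 was 0.12.

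Nuclear and other products held 4 of the 7 genes that fell, with values in every library and small spreads. Rtp4 (chromosome 16, 23520291 to 23614222), a chaperone of membrane receptors that in mice restrains the type I interferon response, was at 57.99, 25.9, 30.6 and 55.7 CPM in skin 1 to 4, against 275, 188 and 293 CPM in SDLN 1 to 3. The highest skin value was below the lowest SDLN value (log2 fold change -2.57, SE 0.39, adjusted p = 0.0145). Sp100 (chromosome 1, 85649988 to 85709998), a component of PML nuclear bodies, was at 712, 377, 347 and 468 CPM in skin 1 to 4, against 1441, 1257 and 1296 CPM in SDLN 1 to 3 (log2 fold change -1.48, SE 0.29, adjusted p = 0.0354). Trim30a (chromosome 7, 104409025 to 104465193), a mouse TRIM protein that dampens Toll-like receptor signalling, was at 166, 135, 152 and 182 CPM in skin 1 to 4, against 446, 357 and 319 CPM in SDLN 1 to 3 (log2 fold change -1.24, SE 0.24, adjusted p = 0.0349). Its close copies make the count uncertain. Ifi35 (chromosome 11, 101448407 to 101458698) was at 179, 161, 162 and 126 CPM in skin 1 to 4, against 285, 284 and 367 CPM in SDLN 1 to 3 and passed narrowly (log2 fold change -0.99, SE 0.25, adjusted p = 0.0496). It did not pass with RLE scaling (adjusted p = 0.0540), with a mean of at least 5 CPM (adjusted p = 0.0686) or without skin 2, 3 or 4 (range 0.00309 to 0.358 over all alternatives). Without the low-count filter Oasl1, Mx2, Trim30a and Ifi35 did not pass, and with a mean of at least 5 CPM Oasl1, Mx2 and Ifi35 did not. Sp100 did not pass without skin 4 either (adjusted p = 0.0529, and 0.000111 to 0.184 over all alternatives). For Rtp4 and Trim30a the ranges over all alternatives were 1.19e-07 to 0.107 and 1.66e-05 to 0.229.

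The other 3 genes of this mixed group did not pass. Xaf1, a pro-apoptotic partner of XIAP, was at 14.9, 6.39, 8.81 and 44.2 CPM in skin 1 to 4, against 90.1, 63.5 and 94.7 CPM in SDLN 1 to 3, with no overlap and skin 4 nearest to SDLN (log2 fold change -2.15, SE 0.73, adjusted p = 0.151). It passed with DESeq2 (adjusted p = 0.0306) and without skin 4 (adjusted p = 0.0415; range over all alternatives 0.0306 to 0.445). Lgals3bp, a secreted glycoprotein, was at 110.0, 0.243, 19.8 and 15.05 CPM in skin 1 to 4, against 300.0, 226 and 224 CPM in SDLN 1 to 3, with no overlap, skin 2 near 0 and skin 1 the highest skin library (log2 fold change -2.79, adjusted p = 0.312). Ifi27, a mitochondrial and nuclear-envelope protein, was at 171, 159.8, 106 and 166 CPM in skin 1 to 4, against 154, 149 and 236 CPM in SDLN 1 to 3, with overlap (log2 fold change -0.25, adjusted p = 0.766). The 8 B cell markers, of which 4 had no count in skin, summed to 31.02, 2.99, 3.61 and 38.4 CPM in skin 1 to 4, against 88.9, 91.2 and 109.9 CPM in SDLN 1 to 3, in the same direction as the genes that fell. Of the 8 endothelial markers Pecam1, which leukocytes also carry, was at 16.2 to 62.7 CPM in skin and 388 to 548 CPM in SDLN. Kdr, Cdh5 and Tek, which define endothelium, were at 0 throughout SDLN. Tie1, Esam, Flt1 and Emcn, the rest of that list, were at most at 0.695 CPM in any SDLN library. The part of B cells in the 7 calls was not tested.

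**Figure D3:**
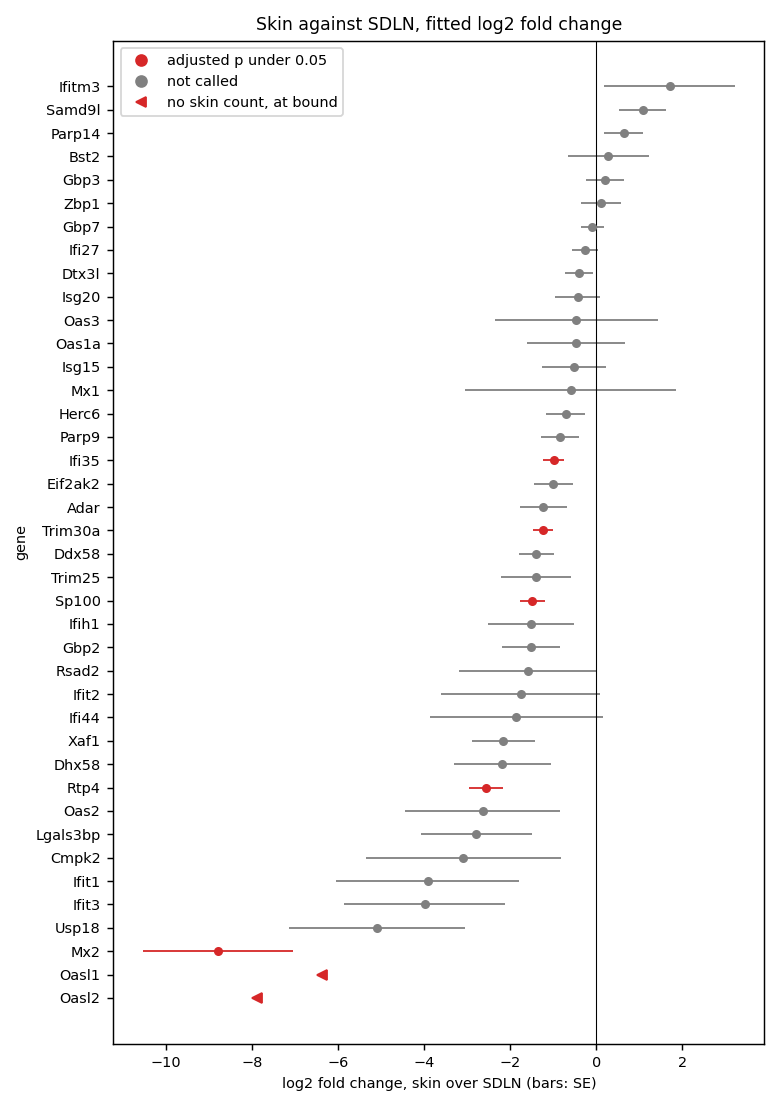
Fitted log2 fold change (skin over SDLN) of each gene with its SE, sorted by size, with genes at an adjusted p under 0.05 in red and the 2 genes without a skin count drawn as triangles at the bound set by 3 counts per skin library. Of the 40 genes 34 lie left of 0, and genes with a wide SE between -1 and -6, such as Usp18 and Ifit1, are not called.

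Summed over the 40 genes, skin 1 was the highest skin library. Over the 80 further interferon-stimulated genes in the table it was not, at 22633 CPM against 23093 CPM in skin 4. The gap between these sums was smaller than the gap in B2m, the most abundant of those genes. B2m was at 5320 CPM in skin 1 and 6564 CPM in skin 4, so the order of the sums rests on B2m. Of the 38 members with a skin count, skin 1 was the highest skin library for 21 (55.3%), against 25.8% of all tested genes, and skin 2, 3 and 4 were highest for 7, 2 and 8. The number for skin 1 was 17 without scaling, 21 with RLE and 19 with upper-quartile scaling. Skin 1 was nevertheless the lowest skin library for Ddx58, Dhx58, Trim25, Adar and Eif2ak2, and had no count of Oas2, Ifi44 or Cmpk2. Among SDLN libraries, SDLN 1 was highest for 27 of 40 members (67.5%), against 26.5% of all tested genes. Ifi44 had the widest range within SDLN, with its highest value 9.37 times its lowest, against 1.07 times for Gbp7. The median coefficient of variation over members was 0.736 in skin and 0.206 in SDLN, against 0.75 and 0.187 over all tested genes.

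**Figure D4:**
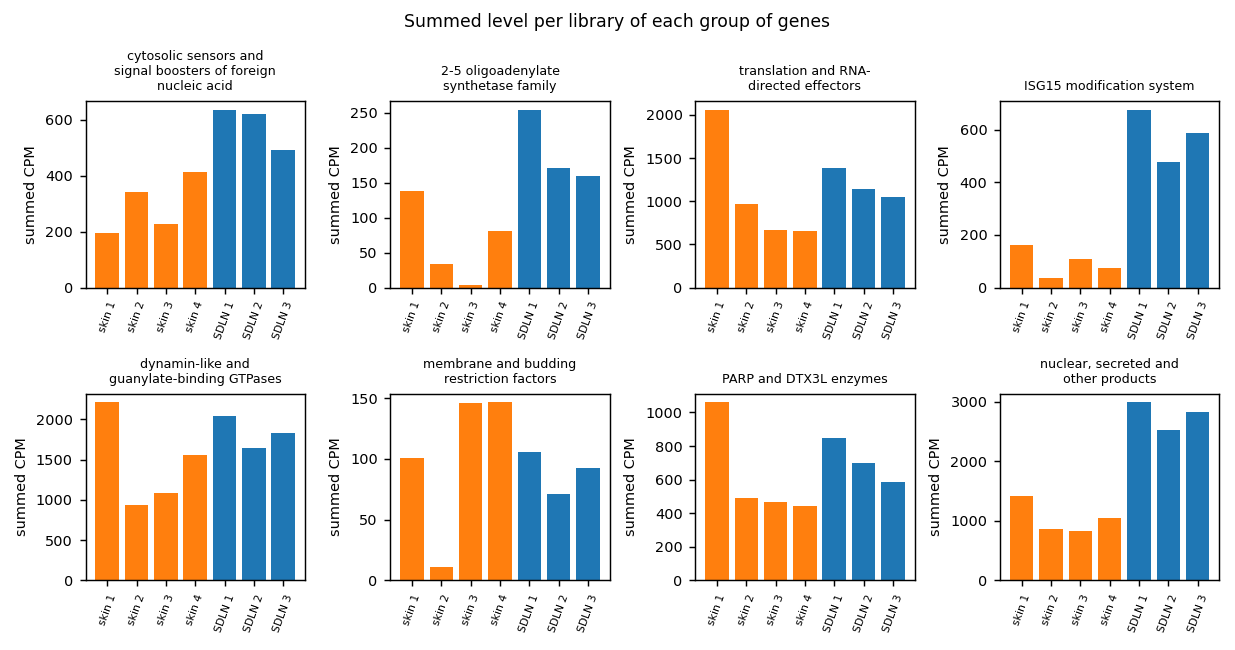
Summed CPM of each group of genes in each library, with skin libraries (orange) left of SDLN libraries (blue) and every axis starting at 0. The ISG15 group, the sensors, the oligoadenylate synthetase family and the nuclear and other products have all skin bars below all SDLN bars, while in the other 4 groups the bars of the tissues overlap.

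Per kilobase of exon, which allows levels of different genes to be compared, the order of the genes differed between tissues. In skin the 5 highest were Gbp7 (164 ± 50.7 CPM per kilobase, SD, n = 4), Samd9l (148 ± 117), Ifi27 (103 ± 20.6), Gbp3 (101 ± 55.7) and Ifi35 (90.98 ± 12.98). In SDLN they were Gbp2 (194 ± 40.4 CPM per kilobase, SD, n = 3), Ifi35 (181 ± 27.7), Sp100 (176 ± 12.8), Gbp7 (174 ± 6.36) and Usp18 (162 ± 29.4), and neighbours in that order differed by less than the SD of Gbp2. Usp18 held rank 28 of 40 in skin, where 573 of its 577 counts came from skin 1, and rank 5 in SDLN, and Lgals3bp rank 19 in skin and rank 10 in SDLN. Mx2, Oasl1 and Oasl2 held the last ranks in skin and ranks 39, 35 and 32 in SDLN.

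Upstream of these targets, the pathway was read from a list of 26 receptors, kinases, transcription factors and other signalling genes, of which 25 were tested. Jak2 rose, no gene fell and 24 did not pass, so 1 of 25 stands near the 3.28% of all tested genes called higher. At an unadjusted p under 0.05, 4 were higher and 3 lower, beside 10% and 8.52% of all tested genes. The median log2 fold change of the list was -0.25. Jak2, the kinase of the interferon gamma receptor and of many cytokine receptors, was at 328, 192, 154 and 295 CPM in skin 1 to 4, against 66.6, 76.2 and 54.3 CPM in SDLN 1 to 3 (log2 fold change 1.88, SE 0.36, adjusted p = 0.0340). Irf1 was at 1021 ± 267 CPM (SD, n = 4) in skin and 959 ± 103 CPM (SD, n = 3) in SDLN (log2 fold change 0.09, adjusted p = 0.915), the receptor chain Ifngr1 at 683 ± 186 CPM (SD, n = 4) in skin and 471 ± 25.4 CPM (SD, n = 3) in SDLN (log2 fold change 0.54, adjusted p = 0.329), and Jak1 at 561 ± 184 CPM (SD, n = 4) in skin and 608 ± 28.9 CPM (SD, n = 3) in SDLN (log2 fold change -0.12, adjusted p = 0.910). The list's single call was 0 without SDLN 1, SDLN 2 or SDLN 3 and 2 without skin 1, and the genes lower in skin numbered 2 without skin 1.

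A second list, likewise chosen with earlier results of these data known, held 84 further interferon-stimulated genes outside the 40. Of its genes 73 were tested. Of these, 8 fell, 65 did not pass and 0 rose, beside 3.96% lower and 3.28% higher among all tested genes. At an unadjusted p under 0.05, 24 were lower and 3 higher, beside 8.52% and 10% of all tested genes. The log2 fold change was negative for 57 of 73, against 48.2% of all tested genes, and its median was -0.73. With DESeq2 and limma-voom 2 and 1 were higher and 18 and 13 lower. The number that fell was 0 without SDLN 1, 1 without SDLN 2 and 1 without SDLN 3. The 8 were Slfn2, Psmb8, Shisa5, Ifi47, Sp110, Tgtp1, Slfn5 and Gbp9. Slfn2, a Schlafen protein needed for T cell quiescence in mice, was at 289, 409, 273 and 265 CPM in skin 1 to 4, against 1179, 1027 and 1477 CPM in SDLN 1 to 3 (log2 fold change -1.99, SE 0.25, adjusted p = 0.00776). Psmb8, the immunoproteasome subunit LMP7, was at 415, 359, 316 and 267 CPM in skin 1 to 4, against 1018, 871 and 1069 CPM in SDLN 1 to 3 (log2 fold change -1.54, SE 0.23, adjusted p = 0.0119). Shisa5, an endoplasmic reticulum protein of the p53 response, was at 1964 ± 551 CPM (SD, n = 4) in skin and 6168 ± 453 CPM (SD, n = 3) in SDLN (log2 fold change -1.65, adjusted p = 0.0198), and the immunity-related GTPase Ifi47 at 327 ± 105 CPM (SD, n = 4) in skin and 1120.3 ± 246 CPM (SD, n = 3) in SDLN (log2 fold change -1.78, adjusted p = 0.0204). Tgtp1, another such GTPase with a near-identical copy, was at 2.97 ± 1.30 CPM (SD, n = 4) in skin and 39.1 ± 8.57 CPM (SD, n = 3) in SDLN (log2 fold change -3.72, adjusted p = 0.0380). Sp110, a relative of Sp100, was at 41.3 ± 14.2 CPM (SD, n = 4) in skin and 143 ± 16.03 CPM (SD, n = 3) in SDLN (log2 fold change -1.79, adjusted p = 0.0380), Slfn5 at 42.00 ± 4.64 CPM (SD, n = 4) in skin and 121 ± 10.1 CPM (SD, n = 3) in SDLN (log2 fold change -1.53, adjusted p = 0.0380) and Gbp9 at 93.9 ± 26.4 CPM (SD, n = 4) in skin and 231 ± 44.1 CPM (SD, n = 3) in SDLN (log2 fold change -1.30, adjusted p = 0.0419). The most abundant genes that did not pass were B2m, Ly6e, Samhd1 and Igtp, with log2 fold changes of -0.40, -0.44, -0.61 and -0.55.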

How the data were processed

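Messenger RNA of 7 libraries of sorted mouse Tregs, 4 from skin and 3 from SDLN, was read as raw counts per gene symbol that the authors deposited without normalization. Per the labels' protocols, cDNA was made from column-purified RNA with the SMARTer Ultra Low Input kit. Per the submitters' processing notes, HTSeq 0.6.1, TopHat2 2.0.12 with Bowtie2 2.1.0.0, CASAVA 1.8.2 and SAMtools 0.1.19.0 were used with build mm10. The sources used here do not give the annotation, the filters or whether strand was used. Of all deposited counts, 61.2% to 70.4% stood on the summary line for multiple alignments, 10.0% to 17.1% on that for reads outside genes and 0.365% to 0.467% on that for ambiguous reads, and these lines were left out. Positions and exon lengths are those of GENCODE M21 (same build) and promoters those of RefSeq.

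Genes were kept by filterByExpr (minimum count 10) in edgeR 4.0.16 under R 4.3.3, scaled by TMM and tested with a robust quasi-likelihood fit with tissue as sole term, two-sided; SE is the log2 fold change divided by the root of F. Floors of 3 counts per library and the 95% exact Poisson interval cover counting error only. As alternatives, each library was left out, DESeq2 1.42.0 and limma-voom (limma 3.58.1) replaced edgeR, scaling was RLE, upper-quartile or absent, the filter was absent or a mean of 5 CPM, robust fitting was off, a replicate block was added, and the threshold was 0.01. Members and lists were chosen with earlier results of these data known. Values per library are given for each member that passed, those without skin counts and the 12 other most abundant ones; further members were added after their values were seen. Some genes of the other lists are not reported here.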

Additional observations from a re-analysis of the deposited data

Results flagged for a closer look

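In 6 of the 38 members with a skin count, 1 of the 4 skin libraries stood so far from the other 3 that its gap to the nearest, over the whole range, exceeded Dixon's 95% critical value. For normally distributed values chance flags about 1 in 20 groups of this size, a rate that need not hold for levels with many zeros. A gene with counts in only 1 of the 4 skin libraries is always flagged, as were Mx1, Cmpk2 and Mx2. Of all tested genes with a skin count 17.8% were flagged, against 15.8% of these members. In skin 1, Usp18 was at 52.7 CPM against 0.0713 to 0.176 CPM in the other skin libraries, Mx1 at 63.1 CPM against 0 and Ifit1 at 52.0 CPM against 0 to 0.214 CPM. In skin 4, Oas2 was at 21.4 CPM against 0 to 0.793 CPM and Cmpk2 at 4.56 CPM against 0. In skin 2, Mx2 was at 0.0809 CPM against 0, which is a single count.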

How the results depend on the processing

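Leaving out each library in turn, members called lower ranged from 0 to 11 (7 with all libraries), members called higher were 0 throughout, members without a skin count were 2 to 3 and members without overlap 21 to 26. Over all genes the range was 33 to 582 called higher and 9 to 822 lower. For the signalling list it was 0 to 2 in each direction, and for the further interferon-stimulated genes 0 to 2 higher and 0 to 10 lower. Without the low-count filter, 188 genes were higher and 70 lower, with 3 members, 0 signalling genes higher and 4 further genes lower. With a mean of at least 5 CPM, 99 genes and 4 members were lower. At an adjusted p under 0.01, 72 genes were higher and 16 lower, with 0 members, 0 signalling genes higher and 1 further gene lower. With DESeq2, 923 genes were higher, with 4 signalling genes higher and 1 lower and 2 further genes higher and 18 lower. With limma-voom, 729 genes were lower, with 1 signalling gene lower and 1 further gene higher and 13 lower. Fitting that was not robust called 1 further gene higher. The replicate numbers pair nothing in the labels, and same-numbered libraries did not deviate together (r of 0.0534, -0.0200 and -0.00868 for numbers 1, 2 and 3). SDLN 3 held 3877 counts of the Y-linked gene Ddx3y and skin 3 held 2, so the libraries numbered 3 cannot come from the same animal. With the replicate block on 7 and 6 libraries, 44 and 32 genes were higher and 12 and 10 lower, with 0 members, 0 signalling genes higher and 0 further genes lower, and the median log2 fold change of members was -1.98 and -2.0. All 7 calls among members were lost under at least 1 alternative, 8 other members passed under at least 1, and 604 of 679 single values kept direction and side of the threshold. Signs turned for 5 uncalled members. With the block on 7 and 6 libraries the log2 fold change was -1.01 and -1.04 for Bst2, -0.26 and -0.27 for Zbp1, -0.18 and -0.20 for Gbp3, and -0.48 and -0.49 for Ifitm3. With limma-voom it was -0.58 for Bst2 and -0.04 for Zbp1. With 1 library left out, Bst2 ranged from -0.25 to 0.67, Zbp1 from -0.27 to 0.35, Gbp3 from -0.13 to 0.41, Gbp7 from -0.32 to 0.01 and Ifitm3 from -0.24 to 2.09. The cause of these shifts was not tested. By counting error alone, a count of 0 allows a level of up to 0.204 to 0.276 CPM, depending on the library. Other losses of a transcript from a library are not covered by this range and were not measured.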

Other observations

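Transcripts of the interferons themselves were nearly absent from these libraries. Of 21 interferon genes in the table, 19 had no count in skin and 18 none in SDLN (Ifnb1 had none in either tissue). Interferon gamma was the exception and the only one tested: Ifng was at 17.2, 43.2, 10.05 and 51.1 CPM in skin 1 to 4, against 2.71, 4.004 and 6.02 CPM in SDLN 1 to 3, without overlap (log2 fold change 2.84, SE 0.96, adjusted p = 0.145). Cxcl10, a chemokine induced by interferon gamma, was at 53.9, 5.10, 98.01 and 216 CPM in skin 1 to 4, against 7.12, 4.76 and 7.88 CPM in SDLN 1 to 3 (log2 fold change 3.82, adjusted p = 0.0989) and was chosen after its values were seen. Irf8, chosen likewise, was at 32.1, 44.9, 32.5 and 58.1 CPM in skin 1 to 4, against 8.89, 6.56 and 10.5 CPM in SDLN 1 to 3 (log2 fold change 2.28, adjusted p = 0.0846). None of the 3 passed the test, and all skin libraries lay above all SDLN libraries for Ifng and Irf8 but not for Cxcl10, while macrophage and dendritic cell markers were also higher in every skin library. The part of such cells in these values was not tested.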
